A study of Mus musculus with 12 samples.

Results

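The genes Cd80, Cd86, Icosl, Cd40, Cd274, Pdcd1lg2, Lgals9, Havcr2 and Cd200r1 encode costimulatory and checkpoint molecules of the macrophage surface. They were chosen by symbol from a table of 55335 mouse genes, in which each of the 9 symbols named 1 gene. With LPS and ATP, 5 of the 8 members that could be tested rose in wild-type and in Nlrp3-/- macrophages (Cd274, Cd40, Lgals9, Icosl and Cd86), and 2 fell in both (Havcr2 and Cd200r1). By the same criterion, 8.25% of all tested genes rose and 11.2% fell in wild-type, and 6.64% rose and 8.21% fell in Nlrp3-/- macrophages. Cd274, which encodes the checkpoint ligand PD-L1, averaged 649 ± 10.2 FPKM in stimulated wild-type cells and 398 ± 2.64 FPKM in stimulated Nlrp3-/- cells (SD, n = 3 each), and the difference between the increases (Nlrp3-/- minus wild-type) was -0.53 on the log2 scale. No member passed the same criterion between genotypes in control or stimulated cells or in this interaction, against 6.71%, 5.05% and 2.15% of all tested genes. By adjusted p alone, 27.7% of all tested genes passed in the interaction. Donor sex and genotype could not be told apart. Cd40 reached the same range in both genotypes, with means of 39.1 ± 1.15 FPKM for wild-type and 39.8 ± 2.13 FPKM for Nlrp3-/- cells (SD, n = 3 each).

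The data were 12 RNA-seq libraries of bone marrow-derived macrophages (BMDMs), cultured from mouse marrow with macrophage colony-stimulating factor. Wild-type C57BL/6 and Nlrp3-/- BMDMs, from mice aged 8 weeks, were each studied without stimulation (control) and after lipopolysaccharide (LPS) followed by adenosine triphosphate (ATP), with 3 libraries in each of the 4 groups. LPS primes the NLRP3 inflammasome and ATP triggers it. The labels give 4 hours of LPS and then 30 min of ATP, while the study's methods give longer times for both. The Nlrp3-/- mice were a commercial knockout line from Cyagen, which the study's limitations treat as a global knockout, and littermate controls are not named. Wild-type mice came from another supplier. The sources used here do not say whether the 3 libraries of a group came from separate cultures or animals, so p-values measure the spread between these libraries, which may be technical.

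T cells need a second signal beside antigen, and macrophages give or withhold it through surface proteins. CD80 and CD86 bind CD28 and CTLA-4 on T cells, ICOS ligand binds ICOS, and CD40 receives CD40 ligand from activated T cells. PD-L1 and PD-L2 restrain T cells through PD-1, galectin-9 is a glycan-binding protein described as a ligand of TIM-3 among others, and the receptors TIM-3 and CD200R1 act on the macrophage itself. Cd40, Havcr2 and Cd200r1 therefore encode receptors, although the genes are grouped here with ligands.

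Values are FPKM, which divides a gene's fragments by its length and by the library's mapped fragments, so levels can be compared between genes per length. Differences were tested with limma on log2(FPKM + 1) over the 12622 genes that reached an FPKM of 1 in 3 or more libraries. A fold change on this scale understates the change of a gene with low FPKM. A gene was called a differentially expressed gene (DEG) where its p, adjusted over all tested genes by Benjamini-Hochberg, was under 0.05 and its log2 fold change was 1 or more, up or down. Of the members, 8 passed the filter and were tested, and Pdcd1lg2 did not pass it. Rescaling the libraries by median ratios moved the median of all genes by 0.25 and 0.23 on the log2 scale in the stimulation comparisons of wild-type and Nlrp3-/- cells, by -0.12 and -0.15 in the genotype comparisons of control and stimulated cells, and by -0.02 in the interaction. In the stimulation and genotype comparisons, the median of the members is therefore given beside that of all tested genes.

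Nlrp3 was listed at 0 in all 6 Nlrp3-/- libraries and averaged 9.68 FPKM in control and 32.9 FPKM in stimulated wild-type BMDMs. The summed FPKM per library lay between 283300 and 299400, reads per library are unknown, and the steps between low values gave relative depths of 1.0 to 1.22. All macrophage markers (7 symbols in 8 rows of the table, among them Adgre1, Csf1r and Cd68) averaged at least 1 FPKM in every group, while the defining dendritic cell genes Flt3, Zbtb46, Xcr1, Clec9a, Cd209a and Siglech and the T cell genes Cd3d, Cd3e, Cd8a and Trac were below 1 FPKM. The remaining gene of each list was higher in Nlrp3-/- cells by adjusted p in both states, with Ccr7 at means of 0.566 and 2.30 FPKM in control and stimulated wild-type and 1.89 and 4.54 FPKM in Nlrp3-/- cells, and Cd4 at 9.25, 3.75, 21.5 and 6.53 FPKM in the same order. Sums in the same order ran from 1.25 to 1.57, 0.461 to 0.855, 4.08 to 5.11 and 1.85 to 2.02 FPKM for B cell markers and from 1.47 to 1.94, 0.412 to 0.515, 9.002 to 10.4 and 3.60 to 4.19 FPKM for mast cell and basophil markers. Fibroblast marker sums ran from 157 to 183 FPKM in wild-type libraries and from 891 to 1182 FPKM in Nlrp3-/- libraries. Neutrophil marker sums ran from 241 to 274 FPKM in control and 91.6 to 107 FPKM in stimulated wild-type libraries, and from 1420 to 1468 FPKM and 417 to 445 FPKM in the Nlrp3-/- libraries. A mean of at least 1 FPKM was also reached by 5 of 6 fibroblast markers in each wild-type group and all 6 in each Nlrp3-/- group. Of 7 neutrophil markers, 6 and 3 reached it in control and stimulated wild-type cells, and 6 and 5 in Nlrp3-/- cells. Xist was at least 32.8 FPKM in every Nlrp3-/- library and at most 0.0416 FPKM in every wild-type library, so donor sex and genotype cannot be told apart in any genotype comparison. In bulk RNA, fewer cells of a type and less RNA per cell cannot be told apart either.

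LPS is known to act on macrophage genes largely through NF-kB, AP-1 and interferon-responsive factors, so promoters of some members are shown. They are those of Cd274, Lgals9 and Icosl, which rose, Havcr2, which fell, and Pdcd1lg2, which was not tested. RefSeq promoter windows of GRCm38.p6 were at hand for 6 of the 9 members (Cd80, Cd274, Pdcd1lg2, Icosl, Havcr2 and Lgals9). The 250 bases before the RefSeq start are printed 5′ to 3′ on the gene's strand, in lower case, with a motif match in capitals. Capitals mark the ISRE core (GAAANNGAA or its reverse complement) in Cd274 and Lgals9, AP-1 (TGANTCA) in Havcr2, and the NF-kB consensus in Pdcd1lg2. Each motif was searched on both strands, and the ISRE core and the other motifs did not overlap in these windows.
Cd274, chr19:29367188-29367437, plus strand: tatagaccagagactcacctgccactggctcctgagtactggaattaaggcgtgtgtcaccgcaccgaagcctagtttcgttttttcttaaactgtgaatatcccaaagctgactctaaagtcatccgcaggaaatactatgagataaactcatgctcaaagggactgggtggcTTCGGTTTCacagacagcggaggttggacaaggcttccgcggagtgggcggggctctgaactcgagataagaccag
Lgals9, chr11:78984925-78985174, minus strand: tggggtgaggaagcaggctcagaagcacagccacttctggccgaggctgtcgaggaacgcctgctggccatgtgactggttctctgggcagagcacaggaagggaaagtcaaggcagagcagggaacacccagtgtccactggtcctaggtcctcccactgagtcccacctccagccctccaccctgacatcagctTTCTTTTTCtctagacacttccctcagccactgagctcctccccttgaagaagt
Icosl, chr10:78069118-78069367, plus strand: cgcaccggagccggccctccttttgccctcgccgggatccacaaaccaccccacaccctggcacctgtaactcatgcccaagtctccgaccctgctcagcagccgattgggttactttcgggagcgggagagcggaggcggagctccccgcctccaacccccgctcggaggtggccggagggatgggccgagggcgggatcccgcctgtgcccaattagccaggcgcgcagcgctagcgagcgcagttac
Havcr2, chr11:46454681-46454930, plus strand: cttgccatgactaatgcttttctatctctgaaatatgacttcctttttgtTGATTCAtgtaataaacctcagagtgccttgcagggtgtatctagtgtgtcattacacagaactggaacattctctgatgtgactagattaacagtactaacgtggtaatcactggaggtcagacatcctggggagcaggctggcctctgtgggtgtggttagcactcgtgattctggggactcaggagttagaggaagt
Pdcd1lg2, chr19:29410669-29410918, plus strand: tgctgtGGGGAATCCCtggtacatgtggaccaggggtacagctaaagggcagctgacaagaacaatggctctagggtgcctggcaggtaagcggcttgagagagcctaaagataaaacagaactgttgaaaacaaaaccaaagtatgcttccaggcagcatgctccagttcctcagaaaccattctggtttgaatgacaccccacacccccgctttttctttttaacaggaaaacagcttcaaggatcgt
The ISRE core of Cd274 lay at bases -76 to -68 from the start and that of Lgals9 at -54 to -46, both read on the opposite strand, and Lgals9 had another match 17 to 25 bases past its start. The AP-1 match of Havcr2 lay at -200 to -194, that of Cd80 at -42 to -36, and the NF-kB match of Pdcd1lg2 at -244 to -235. Icosl, which rose, had no match to any of the 4 motifs. Of all 32851 windows of 300 bases, 4.51% held the NF-kB consensus, 8.56% the ISRE core, 8.3% the GAS motif (TTCNNNGAA), of which no member had a match, and 7.81% the AP-1 motif. A match is a description of these letters and not of a bound site.

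The RNA levels of the 9 genes lay in a different order in control and stimulated BMDMs. In wild-type control cells the mean levels ran from Lgals9 (71.8 FPKM) through Cd200r1 (33.8), Cd274 (32.2), Havcr2 (25.2), Cd86 (9.30), Cd80 (4.12), Icosl (1.85) and Cd40 (1.82) to Pdcd1lg2 (0.120). The libraries of Cd200r1 and Cd274 overlapped in level, as did those of Icosl and Cd40. With LPS+ATP the wild-type order was Cd274 (649 FPKM), Lgals9 (297), Cd40 (39.1), Cd86 (25.9), Cd200r1 (9.04), Icosl (8.02), Havcr2 (6.61), Cd80 (3.21) and Pdcd1lg2 (0.408), with Cd200r1 and Icosl overlapping. Nlrp3-/- BMDMs held the same order as wild-type in the stimulated state, again with Cd200r1 and Icosl overlapping, and in the control state only Cd274 and Cd200r1, which overlapped, were exchanged.

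**Figure D1:**
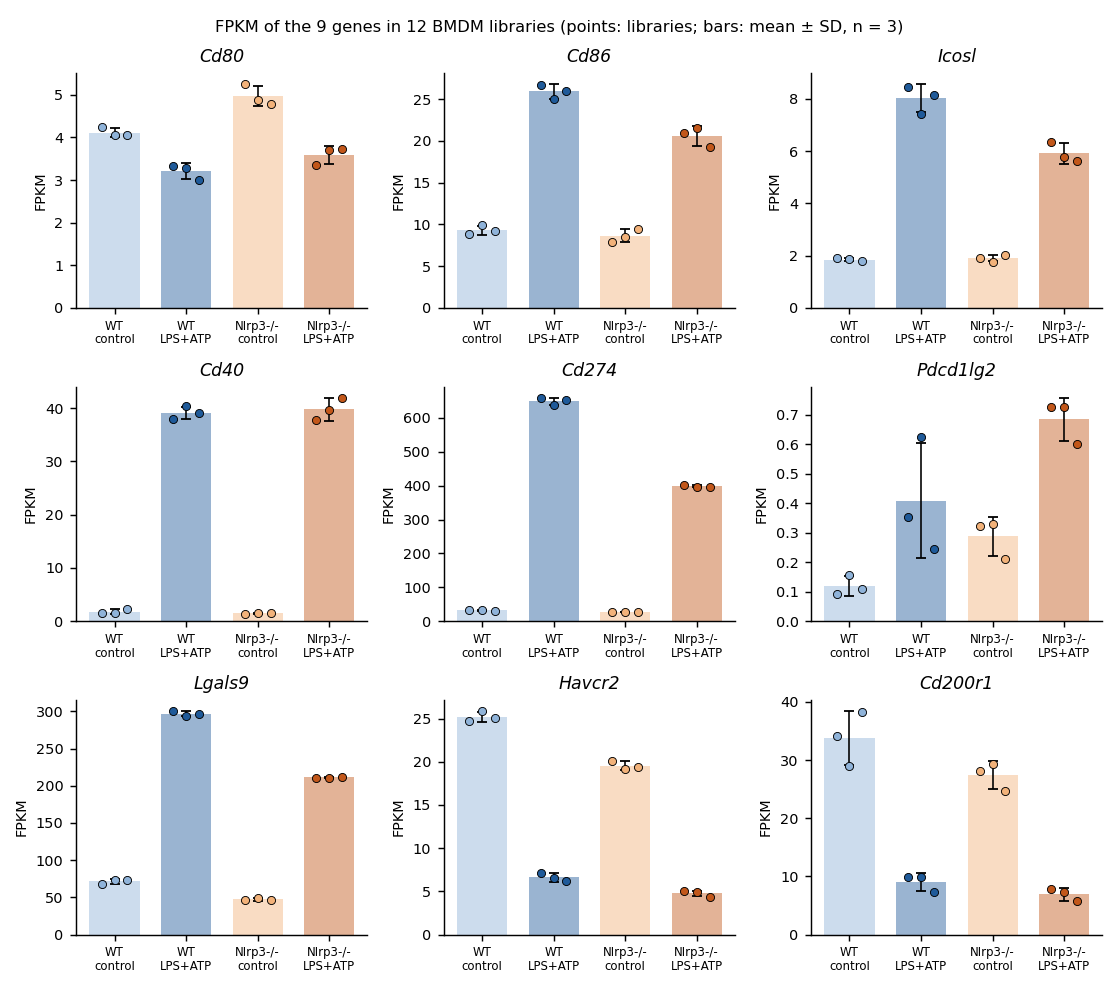
FPKM of each of the 9 genes (vertical axis, linear and starting at 0, own scale per panel) in the 4 groups of BMDMs, with a point per library and bars for the mean ± SD (n = 3). Cd274, Lgals9, Cd40, Cd86 and Icosl stand higher with LPS+ATP in both genotypes, Havcr2 and Cd200r1 stand lower, and Cd274 lies near 649 FPKM in stimulated wild-type and 398 FPKM in stimulated Nlrp3-/- cells.

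The first comparison asked how stimulation moved each member within a genotype, beginning with the B7 ligands that engage T cells. Cd86 (ENSMUSG00000022901, chromosome 16, 36603869 to 36666081, minus strand, GRCm38) encodes a ligand of CD28 and CTLA-4. Its FPKM was 8.81, 9.91 and 9.18 in wild-type control libraries and 26.8, 25.1 and 26.0 with LPS+ATP. In Nlrp3-/- libraries it was 7.91, 8.51 and 9.45 in control and 20.96, 21.6 and 19.3 with LPS+ATP. Every stimulated library lay above every control library, and Cd86 rose 2.79-fold in mean FPKM in wild-type cells (log2 fold change 1.39, SE 0.07, adjusted p = 3.7e-09 by limma) and 2.39-fold in Nlrp3-/- cells (1.17, SE 0.07, adjusted p = 2.272e-08).

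Cd80 (ENSMUSG00000075122, chromosome 16, 38455561 to 38496335, plus strand) encodes the other ligand of CD28 and CTLA-4 and was lower after stimulation. It was 4.24, 4.05 and 4.05 FPKM in wild-type control and 3.34, 3.29 and 2.99 FPKM in stimulated wild-type libraries. The Nlrp3-/- libraries read 5.24, 4.89 and 4.78 FPKM in control and 3.35, 3.71 and 3.72 FPKM with LPS+ATP. The stimulated libraries lay below the control libraries of their genotype without overlap. The log2 fold change of -0.28 (SE 0.05, adjusted p = 0.0005463) in wild-type and -0.38 (SE 0.05, adjusted p = 6.715e-05) in Nlrp3-/- cells was below the fold limit, close to the median of all genes (-0.26 and -0.24), and after median-ratio scaling it was -0.03 (adjusted p = 0.6979) and -0.14 (adjusted p = 0.04136). Within a library the ratio of Cd86 to Cd80 went from 2.26 ± 0.183 (SD, n = 3) to 8.11 ± 0.543 in wild-type cells and from 1.74 ± 0.233 to 5.75 ± 0.542 in Nlrp3-/- cells, which no scaling of libraries alters.

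Icosl (ENSMUSG00000000732, chromosome 10, 78069302 to 78083913, plus strand) encodes the ligand of ICOS, a costimulator of already activated T cells, and its promoter is printed above. Wild-type control libraries held 1.90, 1.87 and 1.78 FPKM and stimulated ones 8.46, 7.43 and 8.16 FPKM. In Nlrp3-/- cells the values were 1.92, 1.78 and 2.02 FPKM in control and 6.36, 5.76 and 5.62 FPKM with LPS+ATP. The control libraries of both genotypes overlapped, and every stimulated wild-type library lay above every stimulated Nlrp3-/- library, which in turn lay above all controls. Icosl rose 4.33-fold in wild-type (log2 fold change 1.66, SE 0.06, adjusted p = 3.786e-10 by limma) and 3.11-fold in Nlrp3-/- cells (1.25, SE 0.06, adjusted p = 6.308e-09).

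Cd40 (ENSMUSG00000017652, chromosome 2, 165055627 to 165072948, plus strand) encodes the receptor through which T cells license macrophages. It was 1.63, 1.55 and 2.29 FPKM in wild-type control libraries and 38.0, 40.3 and 39.0 FPKM with LPS+ATP. Nlrp3-/- libraries held 1.42, 1.504 and 1.497 FPKM in control and 37.7, 39.6 and 42.0 FPKM with LPS+ATP. Cd40 was among the lowest of the 9 genes in control cells and the third highest after stimulation in both genotypes. It rose 21.5-fold in mean FPKM in wild-type (log2 fold change 3.84, SE 0.08, adjusted p = 4.715e-12 by limma) and 26.99-fold in Nlrp3-/- cells (4.04, SE 0.08, adjusted p = 3.92e-12), which gave it rank 110 and rank 71 from the highest among 12622 genes.

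Among the checkpoint ligands, Cd274 (ENSMUSG00000016496, chromosome 19, 29367455 to 29388095, plus strand) encodes PD-L1, the main ligand by which myeloid cells engage PD-1. It was 33.8, 32.1 and 30.7 FPKM in wild-type control libraries and 658, 638 and 652 FPKM in stimulated ones. In Nlrp3-/- libraries it was 28.2, 28.7 and 28.5 FPKM in control and 401, 397 and 396 FPKM with LPS+ATP. No groups overlapped, and the lowest stimulated wild-type library lay above the highest stimulated Nlrp3-/- library by more than the whole range of either group. Cd274 rose 20.2-fold in wild-type (log2 fold change 4.29, SE 0.03, adjusted p = 1.38e-15 by limma) and 13.98-fold in Nlrp3-/- cells (3.76, SE 0.03, adjusted p = 4.5e-15) and held rank 80 and rank 86 from the highest. An antisense gene, ENSMUSG00000117964, overlaps Cd274 on the minus strand, and whether reads were counted by strand is not given in the sources used here. It held at most 3.17 FPKM in any library.

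Pdcd1lg2 (ENSMUSG00000016498, chromosome 19, 29410919 to 29471161, plus strand) encodes PD-L2 and is the next coding gene after Cd274 on the same strand. It was 0.0924, 0.156 and 0.111 FPKM in wild-type control and 0.353, 0.625 and 0.246 FPKM in stimulated wild-type libraries. Nlrp3-/- libraries held 0.323, 0.329 and 0.211 FPKM in control and 0.726, 0.727 and 0.600 FPKM with LPS+ATP. All 12 values were below 1 FPKM, which is why the gene was not tested, and the stimulated libraries lay above the control libraries of their genotype. With no filter on low values, where 30133 genes entered, its log2 fold change was 0.32 (adjusted p = 0.0146) in wild-type and 0.39 (adjusted p = 0.005108) in Nlrp3-/- cells, below the fold limit. A930007I19Rik overlaps Pdcd1lg2 on the other strand and held more than Pdcd1lg2 in every library, from 0.366 to 0.541 FPKM in control libraries and from 1.25 to 2.98 FPKM in stimulated ones. Without a stated strand setting, the reads of the pair cannot be told apart.

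Lgals9 (ENSMUSG00000001123, chromosome 11, 78962974 to 78984946, minus strand) encodes galectin-9 and was the most abundant member in control cells. Its FPKM was 68.1, 73.4 and 73.9 in wild-type control and 301, 294 and 296 in stimulated wild-type libraries. The Nlrp3-/- values were 46.1, 49.6 and 46.5 FPKM in control and 211, 210 and 212 FPKM with LPS+ATP. The 4 groups did not overlap, and the Nlrp3-/- libraries were lower in each state. Lgals9 rose 4.14-fold in wild-type (log2 fold change 2.03, SE 0.04, adjusted p = 9.552e-13 by limma) and 4.46-fold in Nlrp3-/- cells (2.13, SE 0.04, adjusted p = 8.427e-13). Cd274 stood below Lgals9 in every control library, at 0.450 ± 0.0423 of its level in wild-type and 0.601 ± 0.0192 in Nlrp3-/- cells (SD, n = 3), and above it in every stimulated library, at 2.19 ± 0.0157 and 1.88 ± 0.0195.

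The members that act as inhibitory receptors on the macrophage moved the other way. Havcr2 (ENSMUSG00000020399, chromosome 11, 46454935 to 46481255, plus strand) encodes TIM-3, a receptor known from exhausted T cells that myeloid cells also carry. It was 24.7, 25.9 and 25.1 FPKM in wild-type control and 7.14, 6.49 and 6.20 FPKM in stimulated wild-type libraries. In Nlrp3-/- libraries it was 20.1, 19.2 and 19.4 FPKM in control and 5.03, 4.88 and 4.40 FPKM with LPS+ATP. Every stimulated library lay below every control library, and mean FPKM was 73.8% lower in wild-type (log2 fold change -1.79, SE 0.05, adjusted p = 8.076e-11 by limma) and 75.6% lower in Nlrp3-/- cells (-1.83, SE 0.05, adjusted p = 8.834e-11).

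Cd200r1 (ENSMUSG00000022667, chromosome 16, 44765736 to 44794978, plus strand) encodes the receptor of CD200, which dampens myeloid activation. Its FPKM was 34.1, 29.0 and 38.3 in wild-type control and 9.88, 9.91 and 7.34 in stimulated wild-type libraries. Nlrp3-/- libraries held 28.1, 29.3 and 24.8 FPKM in control and 7.86, 7.28 and 5.71 FPKM with LPS+ATP. Its libraries spread more widely within groups than those of the other tested members, with an SE of 0.14 on the log2 scale against at most 0.08, yet no stimulated library reached any control library. Mean FPKM was 73.2% lower in wild-type (log2 fold change -1.79, adjusted p = 2.992e-07 by limma) and 74.6% lower in Nlrp3-/- cells (-1.84, adjusted p = 2.938e-07). No transcript of another gene matched 20% or more of a member's longest transcript at 95% identity. The closest was Cd200r4, the next coding gene, with 93.8% identity to Cd200r1 over 22.6%, so short reads in that stretch may be shared.

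The 5 members that rose among 8 tested compare with 8.25% of all tested genes that were DEGs with higher levels in stimulated wild-type cells and 6.64% in Nlrp3-/- cells. The 2 that fell compare with 11.2% and 8.21% of all genes. The median log2 fold change of the 8 members was 1.52 in wild-type and 1.21 in Nlrp3-/- cells, against -0.26 and -0.24 over all tested genes. Under median-ratio scaling the split of all DEGs turned from 1041 higher and 1411 lower to 1400 higher and 878 lower in wild-type, and from 838 higher and 1036 lower to 1094 higher and 605 lower in Nlrp3-/- cells. The same number of members, 7 of 8, were called in both genotypes under that scaling. Of the 8 macrophage marker rows, 2 were higher and 4 lower by adjusted p in stimulated wild-type cells and 3 higher and 3 lower in Nlrp3-/- cells, with medians of -0.39 and -0.19, and all 6 tested neutrophil markers were lower in both. By adjusted p alone, 2940 of all 12622 tested genes were higher and 6701 lower in wild-type, and 2594 and 6789 in Nlrp3-/- cells. The part of these markers in the changes of the members was not tested.

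**Figure D2:**
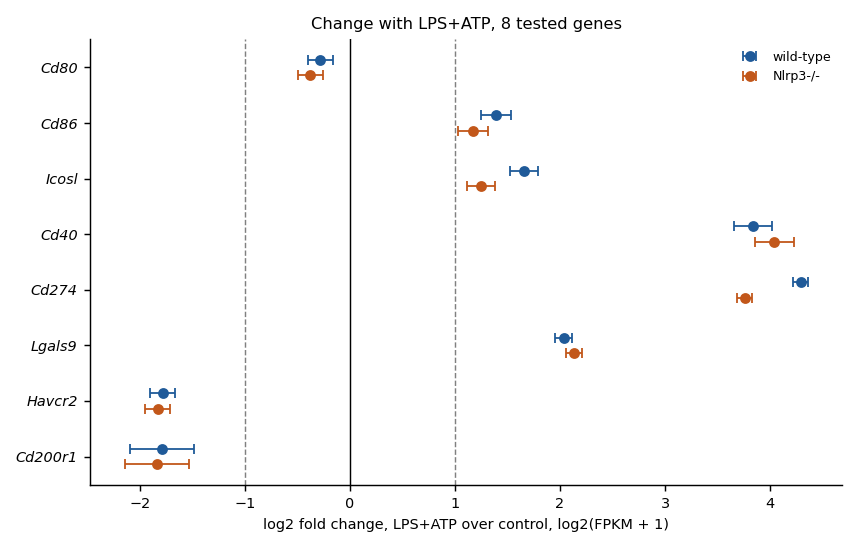
Log2 fold change of LPS+ATP over control on the log2(FPKM + 1) scale for the 8 tested genes, with 95% confidence intervals from limma, in wild-type (blue) and Nlrp3-/- (orange) BMDMs. Dashed lines mark the fold limit of 1 in either direction. Cd274 lies at 4.29 in wild-type and 3.76 in Nlrp3-/- cells, and Cd80 is the gene inside the dashed lines.

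The second comparison asked whether the loss of Nlrp3 altered the members within a stimulation state. No member was a DEG between genotypes in control cells or in stimulated cells, where 6.71% and 5.05% of all tested genes were. By adjusted p alone, without the fold limit, 3 members were lower and 1 was higher in Nlrp3-/- control cells. In stimulated cells 5 were lower and 0 higher. Over all tested genes the shares in control cells were 14.5% lower and 33.3% higher, and in stimulated cells 12.6% lower and 35.9% higher. The median of the 8 members was -0.18 in control and -0.36 in stimulated cells, against 0.09 and 0.11 over all tested genes.

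Of the 8 tested members, Lgals9 had the largest log2(FPKM + 1) difference between genotypes in control cells, being 34.0% lower in mean FPKM in Nlrp3-/- cells (47.4 ± 1.89 against 71.8 ± 3.21 FPKM, SD, n = 3, log2 fold change -0.59, adjusted p = 1.38e-07 by limma). In stimulated cells it was 28.9% lower (211 ± 1.09 against 297 ± 3.28 FPKM, -0.49, adjusted p = 7.767e-07). Havcr2 was 22.4% lower in Nlrp3-/- control cells (-0.35, adjusted p = 0.0002676) and 27.8% lower in stimulated ones (-0.40, adjusted p = 0.0001029). Both genes lie on chromosome 11, as does Nlrp3 (59541568 to 59566956), at distances of 19.4 Mb for Lgals9 and 13.1 Mb for Havcr2.

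Cd274 was 11.6% lower in Nlrp3-/- control cells (log2 fold change -0.17, adjusted p = 0.001181 by limma) and 38.7% lower in stimulated cells (-0.70, SE 0.03, adjusted p = 1.819e-08), where it ranked 181 from the lowest among the 12622 tested genes. Icosl did not pass in control cells (0.03, adjusted p = 0.7629), with groups that overlapped and a sign that turned under median-ratio scaling (-0.07). In stimulated cells it was 26.3% lower (-0.38, adjusted p = 0.0002929), with every Nlrp3-/- library below every wild-type library. Cd86 likewise overlapped in control cells (-0.10, adjusted p = 0.237) and was 20.6% lower in stimulated Nlrp3-/- cells without overlap (-0.32, adjusted p = 0.001814).

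Cd80 was the only member higher in Nlrp3-/- control cells by adjusted p, at 4.97 ± 0.241 against 4.12 ± 0.106 FPKM (SD, n = 3, log2 fold change 0.22, adjusted p = 0.005468 by limma), which median-ratio scaling reduced to 0.09 (adjusted p = 0.1861). In stimulated cells its difference of 0.13 did not pass (adjusted p = 0.07211) and was -0.02 after that scaling. Cd40 did not pass in control cells (-0.18, adjusted p = 0.0981). In stimulated cells its libraries overlapped, with a difference of 0.02 (95% confidence interval -0.16 to 0.21, adjusted p = 0.8532), or -0.17 after median-ratio scaling (adjusted p = 0.1213). Cd200r1 overlapped between genotypes in both states (-0.29, adjusted p = 0.112, and -0.34, adjusted p = 0.06557). Pdcd1lg2, fitted without the filter, differed by 0.20 in control (adjusted p = 0.1485) and 0.27 in stimulated cells (adjusted p = 0.05807).

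When median-ratio scaling was combined with adjusted p alone, a combination chosen after the data were seen, 6 members were lower and 0 higher in each state, against 25.6% of all genes lower and 20.5% higher in control and 27.2% lower and 22.7% higher in stimulated cells. The members lower in both states under it were Cd200r1, Cd274, Cd86, Havcr2 and Lgals9, joined by Cd40 in control and Icosl in stimulated cells. Some macrophage markers moved with the genotype as well. By adjusted p, 4 of the 8 marker rows were lower and 0 higher in Nlrp3-/- cells in each state, with a median log2 fold change of -0.32 in control and -0.28 in stimulated cells. Without rescaling, 14.5% of all tested genes were lower and 33.3% higher in control, and 12.6% and 35.9% in stimulated cells. The summed level of the markers ran from 19870 to 21050 FPKM in wild-type control, 18980 to 19220 in Nlrp3-/- control, 11260 to 11330 in wild-type stimulated and 10580 to 10830 in Nlrp3-/- stimulated libraries. Lyz2 made up most of each sum, with means of 18460, 17690, 9471 and 9309 FPKM in the same order. Lyz2 did not pass between genotypes (adjusted p = 0.06372 in control and 0.4373 in stimulated cells by limma). All 6 fibroblast markers and all 6 tested neutrophil markers were higher by adjusted p in Nlrp3-/- cells in both states. Their part in the genotype differences of the members was not tested.

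**Figure D3:**
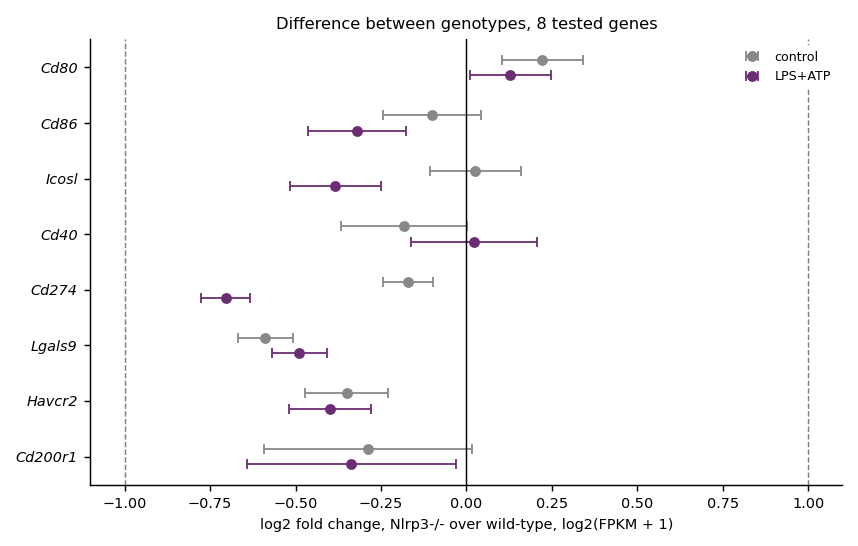
Log2 fold change of Nlrp3-/- over wild-type BMDMs on the log2(FPKM + 1) scale for the 8 tested genes, with 95% confidence intervals from limma, in control (grey) and LPS+ATP (purple) cells. Dashed lines mark the fold limit of 1, which no gene reaches. Cd274 lies at -0.17 in control and -0.70 in stimulated cells. The intervals of the 2 states lie apart for Cd274 and Icosl and overlap for each of the other tested genes.

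The third comparison asked whether the response to LPS+ATP itself differed between genotypes, as the interaction of genotype and stimulation (the log2 fold change in Nlrp3-/- minus that in wild-type cells). With the fold limit no member passed, where 2.15% of all tested genes did. By adjusted p alone 2 of 8 members passed, against 27.7% of all tested genes, a share near the background. Cd274 had an interaction of -0.53 (SE 0.05, 95% confidence interval -0.64 to -0.43, adjusted p = 1.091e-05 by limma), and Icosl one of -0.41 (SE 0.09, interval -0.60 to -0.22, adjusted p = 0.004495). Both ran in the direction of a smaller increase in Nlrp3-/- cells and passed under every alternative that gave a value, Cd274 with -0.58 to -0.50 and Icosl with -0.49 to -0.37.

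The other 6 members did not pass in the interaction, and their intervals bound the difference. Cd86 stood at -0.22 (interval -0.42 to -0.02, adjusted p = 0.1044), Cd40 at 0.20 (-0.06 to 0.46, adjusted p = 0.2382) and Lgals9 at 0.10 (-0.02 to 0.21, adjusted p = 0.1905). For Cd80 the value was -0.09 (-0.26 to 0.07), for Havcr2 -0.05 (-0.22 to 0.12) and for Cd200r1 -0.05 (-0.48 to 0.38). Cd200r1 was bounded least closely of the members. Cd86 passed when 1 Nlrp3-/- control library (replicate 1) was left out (-0.27, adjusted p = 0.04793), and Lgals9 when 1 wild-type control library (replicate 1) was left out (0.14, adjusted p = 0.0362).

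Across the 12 libraries the members fell into patterns that follow stimulation, given as Pearson's r of log2(FPKM + 1) and as a description, since the libraries share 4 conditions. The pairs of rising genes had r from 0.9720 (Cd40 and Lgals9) to 0.9948 (Cd274 and Icosl). The falling genes Havcr2 and Cd200r1 had an r of 0.9891 with each other, within that range. Cd80 had r between -0.94 and -0.86 with the rising genes, and of 0.7438 with Havcr2 and 0.7610 with Cd200r1.

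Among all tested genes, the nearest to each member over the 12 libraries are named by the same r, with no test. Cd40 was most like Ccl5, a chemokine gene (r = 0.9992), then Phf11d (0.9991) and Parp11 (0.9990), and Ccl5 averaged 3.07 FPKM in wild-type control, 1547 in wild-type stimulated and 1536 in Nlrp3-/- stimulated cells. Cd274 was most like Hmox1, which encodes heme oxygenase 1 (0.9996), Clic5 (0.9995) and Slfn4 (0.9994). Hmox1 averaged 4851 FPKM in wild-type stimulated and 3195 FPKM in Nlrp3-/- stimulated cells, and Slfn4 averaged 267 and 113 FPKM. Lgals9 was most like Syk (0.9985), a tyrosine kinase gene, Slfn2 (0.9985) and Ifi203 (0.9982), an interferon-inducible gene.

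For Cd86 the nearest were Rnf31, a subunit gene of the linear ubiquitin ligase (0.9966), Eng (0.9961) and Acp2 (0.9954). Icosl lay nearest Tcp10b (0.9983), Naip2 (0.9973) and ENSMUSG00000116661, which the table gives no symbol (0.9972). Havcr2 lay nearest Ahnak (0.9977), Lsp1 (0.9974) and Elmo1 (0.9972), and Cd200r1 nearest Nsf (0.9897), Havcr2 (0.9891) and Tmem261 (0.9886). Cd80 had the least close matches, Desi2 (0.9823), Atf7ip (0.9804) and Pde3b (0.9748).

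Genes of the same pathways were taken from 8 lists with 70 symbols, of which 68 were in the table, in 69 rows, and 43 rows were tested. With LPS+ATP, 14 rose and 7 fell in wild-type and 13 rose and 7 fell in Nlrp3-/- cells, with medians of 0.16 and 0.30. Over all tested genes, 8.25% rose and 11.2% fell as DEGs in wild-type, and 6.64% rose and 8.21% fell in Nlrp3-/- cells. The medians of all tested genes were -0.26 and -0.24. On the list of CD40 signalling genes, 5 of the 8 tested rose in both genotypes (Traf1, Tnfaip3, Traf2, Traf5 and Birc3), and none fell. Cd40lg, the gene of CD40 ligand, was at most 0.0736 FPKM in any library, and the part of CD40 in these changes was not tested. Traf1, an adaptor of TNF receptors, rose by 3.07 on the log2 scale in wild-type (adjusted p = 7.719e-12 by limma) and by 2.45 in Nlrp3-/- cells (adjusted p = 7.175e-11). Tnfaip3, which encodes the NF-kB inhibitor A20, rose by 2.94 (adjusted p = 6.581e-06) and 2.83 (adjusted p = 1.085e-05). Traf5 rose by 1.45 and 1.49 (adjusted p = 1.943e-08 and 2.043e-08).

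Among 10 tested B7 and immunoglobulin-like ligands other than the members, Icam1, Cd200 and Pvr rose and Vsir, Ceacam1 and Cd48 fell in both genotypes. Icam1, which encodes the ligand of LFA-1, went from 15.9 to 17.1 FPKM in wild-type control libraries to 139 to 147 FPKM with LPS+ATP (log2 fold change 3.02 in wild-type and 2.86 in Nlrp3-/- cells, adjusted p = 2.925e-14 and 5.583e-14 by limma). Vsir, which encodes the checkpoint protein VISTA, had log2 fold changes of -3.17 and -2.62 (adjusted p = 1.251e-08 and 8.979e-08). Cd200, the ligand of Cd200r1's product, rose by 2.03 and 1.43 (adjusted p = 0.002198 and 0.01741), with stimulated libraries spread from 11.8 to 35.6 FPKM.

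Genes of lymphocyte receptors, only some of which bind the members' products, were mostly below the filter. Of 10 listed, 8 were not tested, among them Ctla4, Icos and Pdcd1. Cd28, the receptor of CD80 and CD86, was measured in control BMDMs at 20.1, 16.7 and 17.2 FPKM in wild-type and 5.08, 4.60 and 4.88 FPKM in Nlrp3-/- libraries. With LPS+ATP it was at most 0.333 FPKM in every library, while Cd3d, Cd3e, Cd8a and Trac were below 1 FPKM throughout. Cd4, the remaining T cell marker, was measured in all groups, with log2 fold changes with LPS+ATP of -1.11 in wild-type and -1.58 in Nlrp3-/- cells (adjusted p = 1.157e-08 and 7.078e-10 by limma), and of 1.14 between genotypes in control cells (adjusted p = 3.409e-08), opposite in sign to that of Cd28, and its part in the values of Cd28 was not tested. Cd28 fell by 4.04 on the log2 scale in wild-type (adjusted p = 1.583e-12 by limma) and by 2.24 in Nlrp3-/- cells (adjusted p = 3.192e-10). It was also lower in Nlrp3-/- control cells (-1.69, adjusted p = 1.107e-08). Of the 8 lists, it was the only gene that passed in the interaction with the fold limit (1.80, adjusted p = 8.589e-07). Stimulated means were far below 1 FPKM (wild-type 0.151, Nlrp3-/- 0.242), with a genotype difference of 0.11 (adjusted p = 0.2728 by limma). With a pseudocount of 1, the size of each fall was thus set mainly by the control level. The interaction largely restates the control difference, and a genotype-dependent response of Cd28 was not tested apart from it.

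In the TNF superfamily, Tnfsf15 (2.70 and 2.84, adjusted p = 4.307e-11 and 3.721e-11) and Tnfrsf9 (1.34 and 1.30, adjusted p = 2.608e-08 and 4.574e-08), the latter encoding the costimulatory receptor 4-1BB, rose in wild-type and Nlrp3-/- cells among 6 tested genes. Levels of Tnfrsf9 were low, with means going from 0.192 to 2.02 FPKM in wild-type and from 1.09 to 4.15 FPKM in Nlrp3-/- cells. In mean FPKM these rises were 10.5-fold and 3.81-fold, which the log2(FPKM + 1) scale understates. Tnfsf9, the ligand gene of 4-1BB, passed the fold limit in wild-type and Tnfsf4 in Nlrp3-/- cells. The interaction passed by adjusted p for Tnfsf9 (-0.57, adjusted p = 0.00382 by limma) and not for Tnfsf4 (0.30, adjusted p = 0.1929). Of 7 tested rows of other inhibitory and TIM-family receptors, Pilra rose in both genotypes (3.20 and 2.31, adjusted p = 1.959e-13 and 3.467e-12) and Timd4 passed the fold limit in wild-type cells (1.03, adjusted p = 5.328e-07), with an interaction of -0.58 (adjusted p = 0.004084). The galectins Lgals3 (-1.69 and -1.88, adjusted p = 4.861e-12 and 2.614e-12) and Lgals1 (-1.57 and -1.04, adjusted p = 5.719e-10 and 2.895e-08) fell in both genotypes, opposite to Lgals9, and Lgals8 did not reach the fold limit (0.41 and 0.63).

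Of 6 tested genes for surface turnover and adaptors of the members, 1 rose and 1 fell in each genotype. March1, a ubiquitin ligase gene whose product removes CD86 from the surface, rose in both genotypes (1.61 and 1.72, adjusted p = 3.869e-12 and 3.045e-12 by limma), as did Cd86 RNA. Dok2, which encodes an adaptor of CD200R1, fell in both (-1.28 and -1.12, adjusted p = 2.346e-09 and 1.053e-08), as did Cd200r1. Cmtm6, which stabilises PD-L1 at the surface, did not reach the fold limit (-0.57 and -0.45, adjusted p = 3.069e-08 and 3.267e-07), with medians of all genes at -0.26 and -0.24. Cd200r4, the one tested paralogue of Cd200r1, was below the fold limit too (-0.32 and -0.14), and between genotypes it was -0.81 in control and -0.63 in stimulated cells (adjusted p = 1.132e-06 and 1.056e-05). RNA levels do not give the amount of these proteins at the surface, which was not measured in these libraries.

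Between genotypes 3 of the 43 tested rows of the lists were DEGs in control cells, a share near the 6.71% of all tested genes. Pilra (1.22, adjusted p = 2.882e-09 by limma) and Vsig4 (1.04, adjusted p = 3.132e-05), a complement receptor gene of tissue macrophages, were higher in Nlrp3-/- cells and Cd28 was lower. In stimulated cells 0 of 43 were DEGs, against 5.05% of all tested genes. By adjusted p alone 10 were higher and 13 lower, against 35.9% higher and 12.6% lower over all genes. The medians over the lists were 0.09 in control and -0.05 in stimulated cells.

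**Figure D4:**
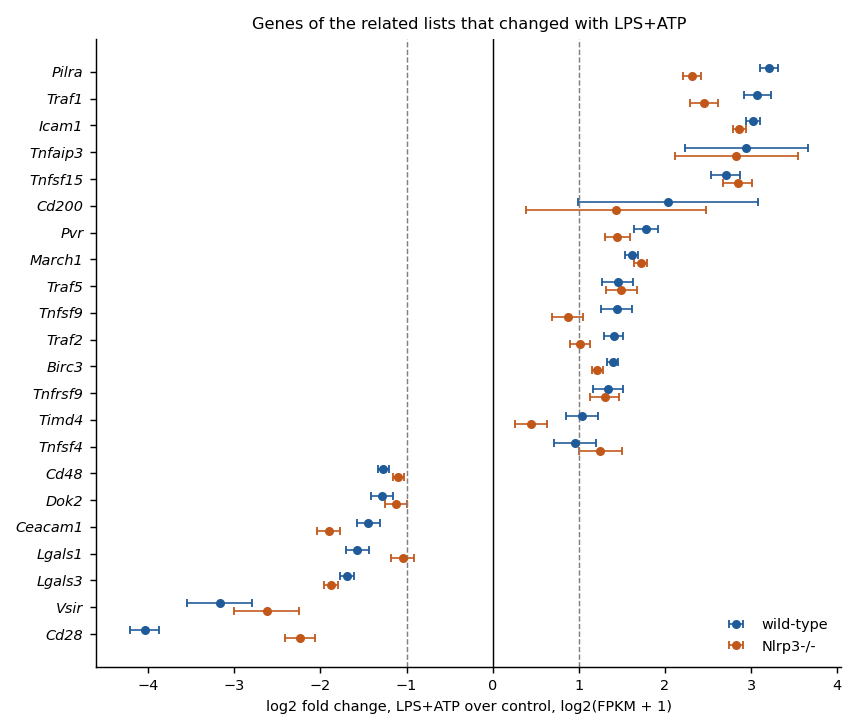
Log2 fold change of LPS+ATP over control on the log2(FPKM + 1) scale, with 95% confidence intervals from limma, for the 22 genes of the 8 related lists that were DEGs in at least 1 genotype, in wild-type (blue) and Nlrp3-/- (orange) BMDMs. Pilra, Traf1 and Icam1 lie at the top near 3 in wild-type cells, and Cd28 lies lowest, at -4.04 in wild-type and -2.24 in Nlrp3-/- cells.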

How the data were processed

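RNA-seq of 12 BMDM libraries was analysed from 1 table, in which the authors deposited FPKM per gene and library. The submitters' processing notes name the build GRCm39 and DESeq2 1.24.0, and the aligner, annotation, strand setting and any scaling between libraries are not given in the sources used here. FPKM is no count, so no count test was run. The number of reads is unknown, and no counting interval could be given. All 12 columns were matched to samples by their library names, and 0 columns of per-sample values were left unused.

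Of 55335 genes, the 12622 that reached an FPKM of 1 in 3 or more libraries entered limma 3.58.1 (R 4.3.3) as log2 values after a pseudocount of 1, with 4 group means and a variance trend. All 12 libraries entered each fit, and no library was dropped or imputed. Confidence intervals are moderated 95% intervals of single contrasts.

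The members, the gene lists and the motifs were chosen with earlier results of these data known. Named were all 9 members, the list genes called in any pairwise comparison with values for up to 3 per list, and the 3 genes most correlated with each tested member. Values of Cmtm6, Cd200r4, Lgals8 and Tnfsf4 were added after they were seen. No set test was run.

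Alternatives were a pseudocount of 0.1, no filter, FPKM of at least 5, TPM rescaled from FPKM, median-ratio scaling, no fold limit, no trend, the compared groups alone, a replicate block and leaving out each library. Adjusted p alone after median-ratio scaling was chosen after the data were seen. Positions came from GENCODE release M21 (GRCm38), which held 55154 of the identifiers, promoters from RefSeq (GRCm38.p6), and near copies from blastn 2.17.0+. The table carries no coordinates. Tables and the correlations of genes were made with pandas 2.3.3 and numpy 2.4.6 in Python 3.11.15, confidence intervals with scipy 1.17.1 and plots with matplotlib 3.10.9.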

Additional observations from a re-analysis of the deposited data

Results flagged for a closer look

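The responses of Cd274 and Icosl to LPS+ATP differed between genotypes by the test of the interaction itself. For Cd274 the interaction was -0.5332 on the log2 scale (adjusted p = 1.091e-05 by limma), and all 3 stimulated Nlrp3-/- libraries lay below all 3 stimulated wild-type libraries. For Icosl it was -0.4088 (adjusted p = 0.004495), with the same separation of the stimulated libraries and overlapping control libraries. Of all tested genes, 27.7% passed the same test.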

How the results depend on the processing

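In all alternatives with a fold limit, 7 members were called with stimulation in each genotype (8 without the limit) and 0 between genotypes or in the interaction. Without a fold limit, 4, 5 and 2 members passed in the genotype comparisons of control and stimulated cells and the interaction, and 6, 6 and 2 after median-ratio scaling. Signs turned only for values that did not pass. Median-ratio scaling gave -0.165 for Cd40 and -0.0204 for Cd80 between genotypes in stimulated cells and -0.0726 for Icosl in control cells. Leaving out single libraries gave -0.0162 for Cd40 (Nlrp3-/- stimulated replicate 3), -0.0021 for Icosl (Nlrp3-/- control replicate 3), an interaction of 0.001 for Havcr2 (wild-type stimulated replicate 1), and interactions of 0.0143 to 0.0679 for Cd200r1 (wild-type stimulated replicates 1 and 2, wild-type control replicate 2 and Nlrp3-/- stimulated replicate 3, with 0.0159 and 0.0533 between). Over all single libraries left out, these ran from -0.0162 to 0.059 for Cd40, -0.0021 to 0.0578 for Icosl, -0.0874 to 0.001 for Havcr2 and -0.1782 to 0.0679 for Cd200r1. Cd80 had no value at FPKM of at least 5.

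Leaving out 1 library brought Cd40 to -0.25 (adjusted p = 0.03603) between genotypes in control cells (without wild-type control replicate 2), Cd80 to 0.17 (adjusted p = 0.03701) in stimulated cells (without Nlrp3-/- stimulated replicate 1), and Cd200r1 to -0.42 (adjusted p = 0.04606) in stimulated cells (same library) and -0.47 (adjusted p = 0.01687, without wild-type stimulated replicate 3). TPM gave Cd80 0.17 (adjusted p = 0.04168).

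Over all genes, calls in the genotype comparisons of control and stimulated cells and the interaction were 847, 637 and 271, and 1285, 1175 and 501 with TPM, 1428, 1406 and 634 with a pseudocount of 0.1, 6035, 6124 and 3494 with no fold limit, and 5817, 6301 and 3454 with no fold limit after median-ratio scaling. FPKM of at least 5 left 515 in control cells, among 7585 genes tested. For stimulation in wild-type and Nlrp3-/- cells, 2452 and 1874 genes were called, 3702 and 2847 with a pseudocount of 0.1, and 9641 and 9383 with no fold limit. The cause of the shifts under TPM and the smaller pseudocount was not tested.

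With the replicate number as a block, 847, 636, 268, 2453 and 1876 genes were called, and no member's call changed. Same-numbered libraries correlated in their deviations with r of -0.0565 to 0.0528 over 18 pairs, of which 7 were best with their own number. These values gave no sign of pairing by number, but with 3 libraries per group they cannot show that it was absent. The precision is that of 3 libraries per group, and the depth in reads is unknown.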
